A study of Mus musculus with 12 samples.

Results

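The chemokines and their receptors made up 59 of the 23284 genes in the tables of read counts from mouse spleen and axillary lymph node. Members were the genes whose symbol starts with Ccl, Cxcl, Ccr or Cxcr followed by a digit, with Xcl1, Xcr1, Cx3cl1 and Cx3cr1. They comprised 39 ligands and 20 receptors. By textbook role, 11 ligands were placed as homeostatic (made constantly to position cells), 20 as inflammatory (induced by injury, infection or cytokines) and 8 as dual or unassigned. A count was present in at least 1 of the 12 libraries for 55 members, while Ccl21b, Ccl21c, Ccl26 and Cxcl15 were at 0 in all of them.

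RNA with poly(A) tails was sequenced from 2 genotypes of mice, giving 4 groups of 3 libraries. DKO mice lack apoE, the ligand for clearance of remnant lipoproteins, and apoA-I, the principal apolipoprotein of HDL. DKO/hA-I mice carry the same deficiencies and overexpress human apoA-I, so neither genotype has mouse apoE or mouse apoA-I and no wild type was analysed here. All animals were 30 weeks old and ate normal laboratory diet, and no source used here gives the promoter of the transgene. Fold changes between genotypes are DKO minus DKO/hA-I on the log2 scale throughout.

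Chemokines are small secreted proteins that direct migrating leukocytes through receptors that span the membrane and couple to inhibitory G proteins. In lymphoid tissue, stromal cells make CCL19, CCL21 and CXCL13, which draw CCR7-bearing T cells and dendritic cells and CXCR5-bearing B cells into their own compartments. Inflammatory ligands such as CCL2, CCL3 and CCL4 instead call in monocytes, neutrophils and effector lymphocytes, and many of them share receptors.

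Libraries held 5911835 to 11950825 counts. A floor of 3 counts corresponded to 0.258 to 0.506 CPM (counts scaled to 1000000 per library on a TMM scale common to the 12 libraries, the unit of all levels given here). The marker genes of each tissue were present: the 6 erythroid markers summed to 6448 to 37004 CPM in spleens and 10.3 to 263 CPM in nodes, and all 6 markers of blood and high endothelial vessels were called higher in node. Nodes also held 580 to 2500 CPM of 7 adipocyte markers, against 66.7 to 88.1 CPM in spleens. Lymph node DKO replicate 2 stood apart as the shallowest library, with 982 CPM of 5 neutrophil markers and 72.8 CPM of 6 skin and mammary epithelial markers, against at most 339 and 8.54 CPM in the other nodes. The 3 DKO nodes share a middle number in the animal code, 75, which no DKO/hA-I node has, so for the nodes genotype and whatever that number marks cannot be told apart. The animals also differ between the tissues. Mouse Apoa1 and Apoe are targeted in both genotypes and do not check the labels. The pseudogene Rpl31-ps12 held 2094 counts in the DKO and 3 in the DKO/hA-I nodes, but 5 in the DKO and 2162 in the DKO/hA-I spleens. The genotype labels of 1 tissue may therefore be exchanged, which was not tested. All directions follow the labels of each tissue, and an exchange would turn every genotype direction of that tissue. Each library carries a separate animal code, so p-values rest on the spread of 3 libraries a group. In bulk tissue, fewer cells of a type and less RNA per cell cannot be told apart.

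Levels of different members were compared per kb of exon, where the length takes in every annotated exon of a gene, whichever transcripts are made. Over the nodes of both genotypes, the CCR7 ligand Ccl21a stood highest among ligands at 255 ± 98.5 CPM per kb (SD, n = 6). It was followed by the CXCR5 ligand Cxcl13 at 211 ± 119, Ccl8 at 183 ± 139, the second CCR7 ligand Ccl19 at 133 ± 24.7 and the T cell and monocyte attractant Ccl5 at 127 ± 41.9 CPM per kb. Neighbours among these 5 differed by less than their spread, while Cxcl12, which retains cells through CXCR4, was beyond it at 77.9 ± 13.2 CPM per kb. That spread includes the difference between genotypes, and the order of the means was not the same in each. In DKO nodes the means of Cxcl13 (301 ± 103) and Ccl8 (268 ± 161 CPM per kb) stood above that of Ccl21a (214 ± 86.5). Each exceeded Ccl21a by less than its own SD. In DKO/hA-I nodes Ccl21a at 295 ± 109 was followed by Ccl19 at 144 ± 33.4, with Cxcl13 at 120 ± 2.94 and Ccl8 at 97.3 ± 19.5. In spleen the order was Ccl19 at 136 ± 19.3, Ccl21a at 127 ± 36.5, Ccl5 at 91.9 ± 9.92, Cxcl13 at 75.6 ± 11.3 and Cxcl12 at 68.2 ± 13.4 CPM per kb. The step from Ccl5 to Cxcl13 exceeded the SD of both, and the other steps did not. By this measure homeostatic ligands took 3 of the 5 highest places in node and 4 of 5 in spleen. The order depends on the length used. Cxcl12 has 8176 bases of annotated exon, and before division by length it was the highest ligand. Its mean was 637 CPM in node and 558 CPM in spleen, against 221 and 111 CPM for Ccl21a.

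Cxcr4 was the highest receptor in both tissues, at 121 ± 17.9 CPM per kb in node and 81.0 ± 34.6 in spleen. Ccr7 followed at 82.7 ± 28.5 and 43.7 ± 6.24 CPM per kb. In node the B cell receptors Ccr6 (35.6 ± 7.74 CPM per kb) and Cxcr5 (35.3 ± 9.67) came next and did not differ beyond their spread. In spleen Cxcr5 at 42.7 ± 3.50 CPM per kb was level with Ccr7, and the eosinophil receptor Ccr3 followed at 26.9 ± 6.19 CPM per kb.

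In lymph node, 9 members were higher and 1 was lower in DKO than in DKO/hA-I. The receptor Ccr1 rose together with its ligands Ccl6 and Ccl9, while Ccr9, the receptor of thymic and gut-homing cells, fell. Of 45 members tested, 22.2% were called at an adjusted p under 0.05 (edgeR quasi-likelihood test), against 6.87% of the 14012 genes tested (3.95% higher and 2.92% lower). Calls fell on 2 of 7 homeostatic, 4 of 14 inflammatory and 1 of 5 dual or unassigned ligands, all higher, and on 3 of 19 receptors. Median log2 fold changes were 0.80 for the inflammatory ligands, 0.13 for the homeostatic ligands, 0.12 for the receptors and 0.01 for all genes. By an unadjusted p under 0.05, 19 members were higher and 3 lower, against 14.7% and 10.4% of all genes (25.1% in all).

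The inflammatory ligands that rose were Ccl6, Ccl9, Ccl4 and Ccl12. Ccl9, a CCR1 ligand of myeloid cells, stood at 183, 94.2 and 311 CPM in DKO replicates 1 to 3 and at 35.4, 23.2 and 35.5 CPM in DKO/hA-I replicates 1 to 3. The groups did not overlap, and the log2 fold change was 2.66 ± 0.42 (standard error, edgeR adjusted p = 0.0177). Ccl6, its neighbour on chromosome 11 and also a CCR1 ligand, stood at 152, 103 and 267 CPM against 45.8, 30.3 and 28.5 CPM (2.33 ± 0.36, adjusted p = 0.0170). For both ligands DKO replicate 3 was the highest and DKO replicate 2 the lowest of the DKO nodes. Ccl4, an attractant made by activated T cells, NK cells and macrophages, was low but tight in DKO, at 5.67, 5.39 and 5.47 CPM against 2.88, 1.45 and 1.61 CPM (1.48 ± 0.31, adjusted p = 0.0345). Ccl12, a monocyte attractant that acts on CCR2, stood at 27.3, 32.7 and 34.4 CPM against 20.7, 17.7 and 18.9 CPM (0.73 ± 0.15, adjusted p = 0.0321). It had the smallest change among the called members, and its groups were apart because each varied little.

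The 200 bases before the start site are shown for Ccl6, Ccl9 and Ccl12, for the receptor Ccr1 and for Cxcl13 and Ccl8, because these members stood together in the genotype or the tissue contrast. Sequences are from RefSeq on GRCm38.p6, written 5′ to 3′ on the gene's own strand. Capitals mark exact matches, on either strand, to the TATA box TATAAA, the PU.1 core GAGGAA and the AP-1-like pattern TGANTCA. In that pattern N is any base, which is looser than an AP-1 site.
Ccr1: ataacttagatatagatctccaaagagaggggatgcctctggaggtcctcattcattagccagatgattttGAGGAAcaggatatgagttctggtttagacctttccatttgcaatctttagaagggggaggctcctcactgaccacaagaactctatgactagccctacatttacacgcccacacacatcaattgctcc
Ccl6: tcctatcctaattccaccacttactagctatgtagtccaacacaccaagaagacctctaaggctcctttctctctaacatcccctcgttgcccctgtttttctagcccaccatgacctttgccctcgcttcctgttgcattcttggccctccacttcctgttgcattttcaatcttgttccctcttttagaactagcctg
Ccl9: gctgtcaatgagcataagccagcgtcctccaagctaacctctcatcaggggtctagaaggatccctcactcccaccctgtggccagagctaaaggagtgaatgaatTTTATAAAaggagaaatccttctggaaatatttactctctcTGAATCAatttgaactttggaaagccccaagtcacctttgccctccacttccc
Cxcl13: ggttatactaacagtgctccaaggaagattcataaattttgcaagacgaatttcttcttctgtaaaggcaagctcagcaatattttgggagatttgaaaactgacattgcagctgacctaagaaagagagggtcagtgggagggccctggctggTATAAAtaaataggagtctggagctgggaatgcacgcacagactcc
Ccl12: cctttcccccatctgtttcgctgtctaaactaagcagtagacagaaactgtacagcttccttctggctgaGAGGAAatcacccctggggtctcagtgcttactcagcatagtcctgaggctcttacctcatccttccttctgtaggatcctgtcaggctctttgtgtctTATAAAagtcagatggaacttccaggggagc
Ccl8: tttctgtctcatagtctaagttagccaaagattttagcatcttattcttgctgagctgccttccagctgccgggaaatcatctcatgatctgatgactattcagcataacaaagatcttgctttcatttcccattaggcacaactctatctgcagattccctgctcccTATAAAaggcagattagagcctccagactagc
They lie at chr9:123968693-123968892 (minus strand) for Ccr1, chr11:83593088-83593287 (minus) for Ccl6, chr11:83578637-83578836 (minus) for Ccl9 and chr5:95956739-95956938 (plus) for Cxcl13. Those of Ccl12 and Ccl8 lie at chr11:82101645-82101844 and chr11:82114985-82115184 (both plus). A TATA box was found in those of Ccl9, Cxcl13, Ccl12 and Ccl8. It was found in 13 of all 50 member promoters and in 9.96% of 32851 promoters of the same length. It began 31 bases before the start site in Ccl12 and 32 in Ccl8, but 46 in Cxcl13. In Ccl9 the capitals cover overlapping matches on the opposite strands, 94 to 87 bases before the start. The PU.1 core lay in Ccr1 and Ccl12 (19.0% of all promoters). The AP-1-like pattern lay in Ccl9 as TGAATCA (5.48% for the pattern), while Ccl6 held none of the letters searched. A match describes the letters in this window only. Of the 59 members, 43 had a promoter in the RefSeq table.

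Among homeostatic ligands, Cxcl13 and Cxcl14 rose. Cxcl13, made by follicular dendritic cells and by some macrophages, stood at 230, 467 and 343 CPM in DKO and at 142, 135 and 137 CPM in DKO/hA-I (1.34 ± 0.24, edgeR adjusted p = 0.0237). The DKO/hA-I nodes were nearly equal and DKO replicate 2 was the highest. Cxcl14, an orphan chemokine of epithelia and fibroblasts, stood at 13.3, 12.1 and 32.5 CPM against 2.41, 3.07 and 0.645 CPM (3.23 ± 0.57, adjusted p = 0.0232), the largest fold change among the members. The ligands of CCR7 were not called: Ccl19 stood at 115, 101 and 103 CPM against 149, 92.5 and 133 CPM (-0.21 ± 0.18, adjusted p = 0.509), and Ccl21a at 108, 193 and 258 CPM against 167, 246 and 356 CPM (-0.45 ± 0.36, adjusted p = 0.497). Their groups overlapped. Cxcl12 was higher in every DKO node, at 671, 722 and 793 CPM against 535, 544 and 555 CPM, but was not called (0.43 ± 0.13, adjusted p = 0.0817).

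Of the dual or unassigned ligands, Cxcl16 rose. It encodes a membrane-bound ligand of CXCR6 that also serves as a scavenger receptor for oxidised lipoprotein. It stood at 225, 132 and 370 CPM against 94.6, 55.6 and 78.0 CPM (1.69 ± 0.37, edgeR adjusted p = 0.0395). Fractalkine, Cx3cl1, a tethered ligand of endothelium and neurons, stood at 13.5, 9.44 and 24.0 CPM against 7.34, 5.60 and 6.45 CPM without being called (1.30 ± 0.34, adjusted p = 0.0633). The dendritic cell ligands of CCR4 gave no call either, with Ccl22 at -0.22 ± 0.47 and Ccl17 at 0.50 ± 0.65.

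Among receptors, Ccr1, which is carried by monocytes, macrophages and neutrophils, had the lowest adjusted p of all members. It stood at 27.3, 33.0 and 35.6 CPM in DKO and at 9.29, 7.23 and 6.56 CPM in DKO/hA-I nodes (2.06 ± 0.19, edgeR adjusted p = 0.00729). The lowest DKO node was well above the highest DKO/hA-I node. Cxcr1, a neutrophil receptor, was near the detection floor at 3.42, 1.85 and 2.29 CPM against 0.557, 0.994 and 0.752 CPM (1.73 ± 0.38, adjusted p = 0.0395). The neighbouring neutrophil receptor Cxcr2 stood at 40.5, 68.1 and 33.3 CPM against 51.7, 47.4 and 56.1 CPM. Cxcr2 was not called (-0.13 ± 0.25, adjusted p = 0.801). Ccr9, the CCL25 receptor, stood at 8.27, 6.41 and 6.79 CPM against 15.9, 20.2 and 18.8 CPM, and fell by 1.33 ± 0.19 on the log2 scale (adjusted p = 0.0138). It was the only member called lower.

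The monocyte receptors Ccr2 (108, 131 and 200 CPM against 101, 70.0 and 71.1 CPM) and Cx3cr1 (69.8, 43.0 and 113 CPM against 36.1, 41.0 and 34.2 CPM) were not called. Their groups did not overlap, and adjusted p was 0.0816 and 0.0918. Groups were apart for 18 members that were higher and 3 that were lower in DKO, against 15.6% and 14.9% of all genes (30.5% in all). The lymphocyte receptors Ccr7 (-0.51 ± 0.38), Cxcr5 (-0.44 ± 0.25) and Cxcr3 (0.12 ± 0.22), and the dendritic cell receptor Xcr1 (-0.04 ± 0.34), had overlapping groups and adjusted p of 0.324 or more. Ccr7 stood at 56.5 CPM in DKO replicate 2 and at 164 to 222 CPM in DKO/hA-I nodes.

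**Figure D1:**
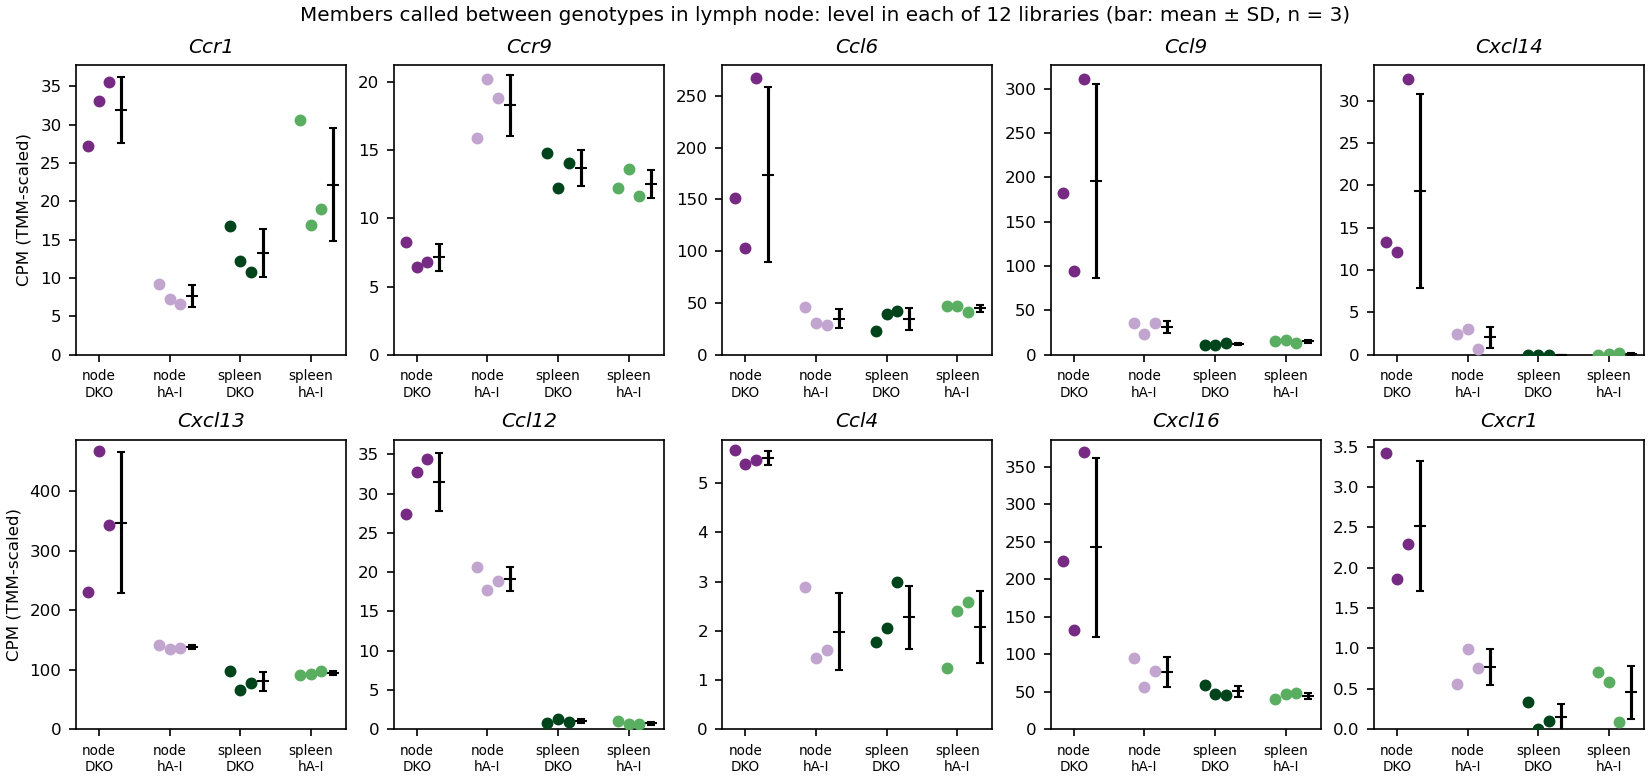
Level of each of the 10 members called between genotypes in lymph node, in CPM on a linear axis, with points for the 12 libraries and the mean ± SD (n = 3) of each group beside them. In 9 panels every DKO node lies above every DKO/hA-I node, and for Ccr9 the DKO nodes, at 6.41 to 8.27 CPM, lie below the DKO/hA-I nodes, at 15.9 to 20.2 CPM.

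Paired by known binding, 1 receptor, Ccr1, was called together with 2 of its 5 ligands listed here, Ccl6 and Ccl9. The ligand Ccl3 (6.57, 2.70 and 8.38 CPM against 2.69, 0.632 and 1.29 CPM, 1.97 ± 0.57) was not called (edgeR adjusted p = 0.0812), and Ccl5 and Ccl7 lay at -0.24 ± 0.36 and -0.42 ± 0.34. For CCR2, Ccl12 was called, while the receptor (0.87 ± 0.25) and Ccl2 (1.14 ± 0.35, adjusted p = 0.0954) were not. Elsewhere a called gene had an uncalled partner: Cxcl13 with Cxcr5 at -0.44, Cxcl16 with Cxcr6 at 0.29 ± 0.28, and Ccr9 with Ccl25 at -0.36 ± 0.37. Ccl8, which in mice binds CCR8, stood at 61.5, 225 and 125 CPM against 45.9, 61.1 and 42.2 CPM (1.47 ± 0.42, adjusted p = 0.0823) beside Ccr8 at 0.86 ± 0.42. The CXCR3 ligands Cxcl9 (0.40 ± 0.24) and Cxcl10 (-0.29 ± 0.40) were not called, nor was Cxcr3.

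**Figure D2:**
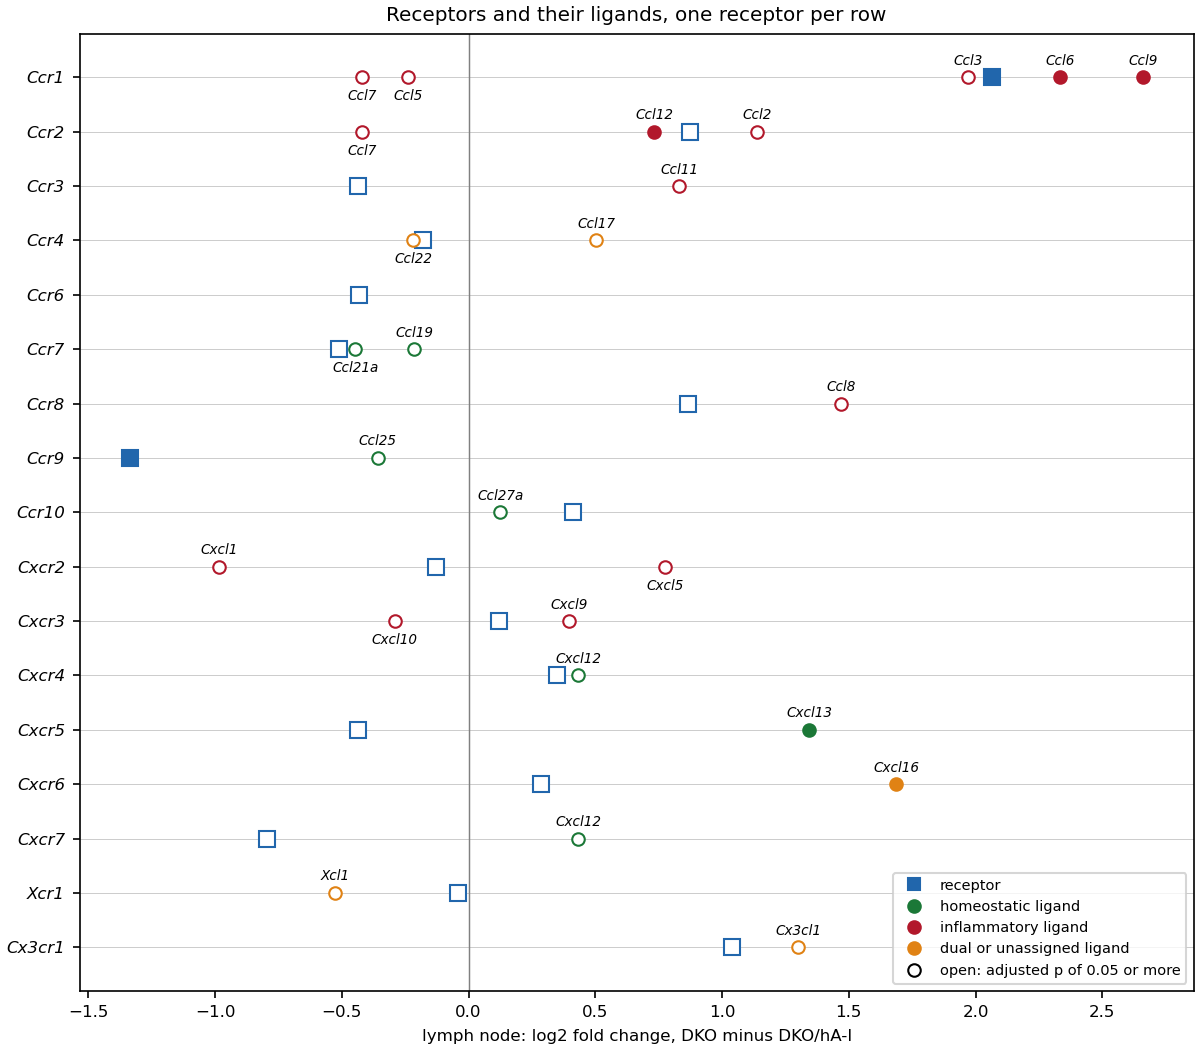
Log2 fold change between genotypes in lymph node for receptors (squares, a row each) and the ligands known to bind them (circles, coloured by role), filled where edgeR adjusted p was under 0.05. Ccr1 at 2.06 lies beside Ccl6 at 2.33 and Ccl9 at 2.66, whereas Cxcr5 at -0.44 lies on the opposite side of 0 from Cxcl13 at 1.34.

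Cell type markers moved with these differences in lymph node. Macrophage markers summed to 4889 to 7265 CPM in DKO and 3109 to 3824 CPM in DKO/hA-I nodes (3 of 6 called higher), and lipid-laden macrophage markers to 985 to 3985 against 350 to 416 CPM (6 of 7 higher). Reticular stroma stood at 583 to 1269 against 201 to 365 CPM (3 of 6 higher) and neutrophil markers at 143 to 982 against 49.5 to 156 CPM (1 of 5 higher). B cell markers stood at 1640 to 2548 against 2729 to 3093 CPM and T cell markers at 581 to 929 against 1034 to 1220 CPM, with 0 called in either list. NK cell markers stood at 79.4 to 106 against 119 to 160 CPM and blood and high endothelial vessel markers at 508 to 620 against 783 to 854 CPM, with 2 of 6 called lower in each list. Among conventional dendritic cell markers 1 of 6 was called higher, with overlapping sums of 239 to 1019 against 231 to 293 CPM. Of the monocyte and lymphatic vessel markers 1 each was lower, and of the follicular dendritic cell markers 1 was higher. Of the adipocyte markers 6 of 7 were called lower (580 to 2500 against 716 to 2125 CPM, with overlapping sums), and of the brown adipocyte markers 5 of 6 (11.2 to 22.8 against 221 to 750 CPM). No marker in these lists was at 0 in either group of nodes, and their part in the chemokine differences was not tested.

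The node count of 10 depended on single libraries. Leaving out DKO replicate 2 gave 16 calls and leaving out DKO replicate 3 gave 3. Over all genes these fits gave 2245 and 144 calls, against 962 with all libraries. Omitting DKO/hA-I replicates 1, 2 or 3 gave 2, 1 and 2 calls, and DESeq2 on all libraries gave 19. Calls over all genes changed there as well, to 149, 115, 433 and 1977. Ccr1 was called in all 12 alternatives run for lymph node, and the other 9 members each lost the call in at least 2 of them.

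In spleen, edgeR called 0 of 41 members between genotypes, against 0.00714% of 14009 genes, and DESeq2 and limma voom also called 0. By an unadjusted p under 0.05, 6 members were lower and 2 higher in DKO (2.45% and 1.96% of all genes, 4.4% together), with adjusted p of 0.929 for each. Groups did not overlap for 6 lower and 0 higher members, against 5.53% and 5.1% of all genes (10.6% in all). The members lower by unadjusted p included the receptors Ccr3, Ccr1 and Ccr2. Ccr3, the eotaxin receptor of eosinophils, stood at 70.7, 69.5 and 78.6 CPM in DKO and 124, 94.3 and 90.3 CPM in DKO/hA-I replicates 1 to 3 (-0.50 ± 0.13). Ccr1 stood at 16.8, 12.2 and 10.8 CPM against 30.6, 16.9 and 19.0 CPM (-0.75 ± 0.25), its groups apart by a narrow margin. Ccr2 stood at 45.4, 74.1 and 48.3 CPM against 113, 96.5 and 66.0 CPM (-0.72 ± 0.24), with overlapping groups. DKO/hA-I replicate 1 was the highest spleen for each of these 3 receptors.

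Among spleen ligands, Cxcl12 stood at 602, 410 and 431 CPM against 669, 631 and 605 CPM (-0.41 ± 0.15) and Ccl9 at 11.5, 11.3 and 13.0 CPM against 15.8, 16.4 and 13.1 CPM (-0.35 ± 0.15). The higher members were the ligand Ccl8, at 6.95, 11.3 and 5.70 CPM against 1.85, 3.27 and 6.55 CPM (1.02 ± 0.44), and the receptor Cxcr4, at 234, 109 and 213 CPM against 139, 88.3 and 94.5 CPM (0.78 ± 0.31). Both had overlapping groups. Spleen DKO replicate 1 was the highest spleen for several monocyte and neutrophil attractants, with Ccl2 at 5.63 CPM against 0.618 to 1.60 CPM in the other spleens, Cxcl1 at 4.30 against 0.480 to 0.882 CPM and Cxcl5 at 8.83 against 3.17 to 3.71 CPM. With the middle number of the animal code as a block, 3 members were called lower (Ccr1, Ccr3 and Cxcl12), and without DKO replicate 1, Cxcl12 was called lower. That block gave 515 calls among all genes and the omission 167. Middle number 56 belongs to spleen DKO replicate 1 alone, so the block also takes that library out of the genotype comparison. The block and the omission are therefore not separate results.

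The genotype differences of 8 members differed between the tissues in a fit of all 12 libraries, which is 17.0% of 47 tested, against 3.33% of 14608 genes. Of the 8, 7 were higher and 1 lower, against 2.04% and 1.29% of all genes. The contrast was the genotype difference in node minus that in spleen, and it rests on genotype labels that Rpl31-ps12 puts in doubt for 1 of the tissues. It was 2.80 ± 0.35 for Ccr1 (edgeR adjusted p = 0.00271), 2.99 ± 0.48 for Ccl9 (0.00644) and 2.69 ± 0.45 for Ccl6 (0.00835). These genes of a receptor and 2 of its ligands were thus higher in DKO nodes, while their spleen log2 values were -0.75, -0.35 and -0.38. For Ccl6, spleens stood at 22.7, 39.4 and 42.2 CPM in DKO and 46.9, 46.8 and 41.2 CPM in DKO/hA-I. The contrast was -1.47 ± 0.23 for Ccr9 (0.00530), whose spleens stood at 14.8, 12.2 and 14.1 CPM against 12.3, 13.6 and 11.6 CPM and overlapped. It was 1.56 ± 0.30 for Cxcl13 (0.0160), with spleens at 98.0, 65.3 and 77.0 CPM against 91.4, 92.6 and 97.3 CPM.

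Ccr2 and Cxcl12 were called in this contrast but in neither tissue alone. The values were 1.57 ± 0.38 for Ccr2 (edgeR adjusted p = 0.0425) and 0.82 ± 0.20 for Cxcl12 (0.0419). Ccr2 lost the call in 10 of the 18 alternatives and Cxcl12 in 11. As labelled, each had a positive node value (0.87 and 0.43) and a negative spleen value (-0.72 and -0.41). With the labels of 1 tissue exchanged, the node and spleen values of each would have the same sign and nearly the same size. In the same contrast 6 of 7 lipid-laden macrophage, 2 of 6 macrophage and 2 of 6 reticular stroma markers were called positive. So were 1 of 5 neutrophil and 1 of 6 conventional dendritic cell markers. Called negative were 2 of 6 NK cell and 2 of 7 adipocyte markers. Lipid-laden macrophage markers summed to 345 to 389 CPM in DKO and 324 to 371 CPM in DKO/hA-I spleens. The part of these cell types was not tested. Ccr1, Ccl6 and Ccl9 were called in all 18 alternatives, Ccr9 in 17 and Cxcl13 in 15. The count fell to 4 without spleen DKO replicate 3 and to 5 without node DKO replicate 3, spleen DKO replicate 2, spleen DKO/hA-I replicate 1 or spleen DKO/hA-I replicate 2. Over all genes these fits gave 188, 222, 179, 225 and 196 calls in that order, against 487 with all libraries.

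**Figure D3:**
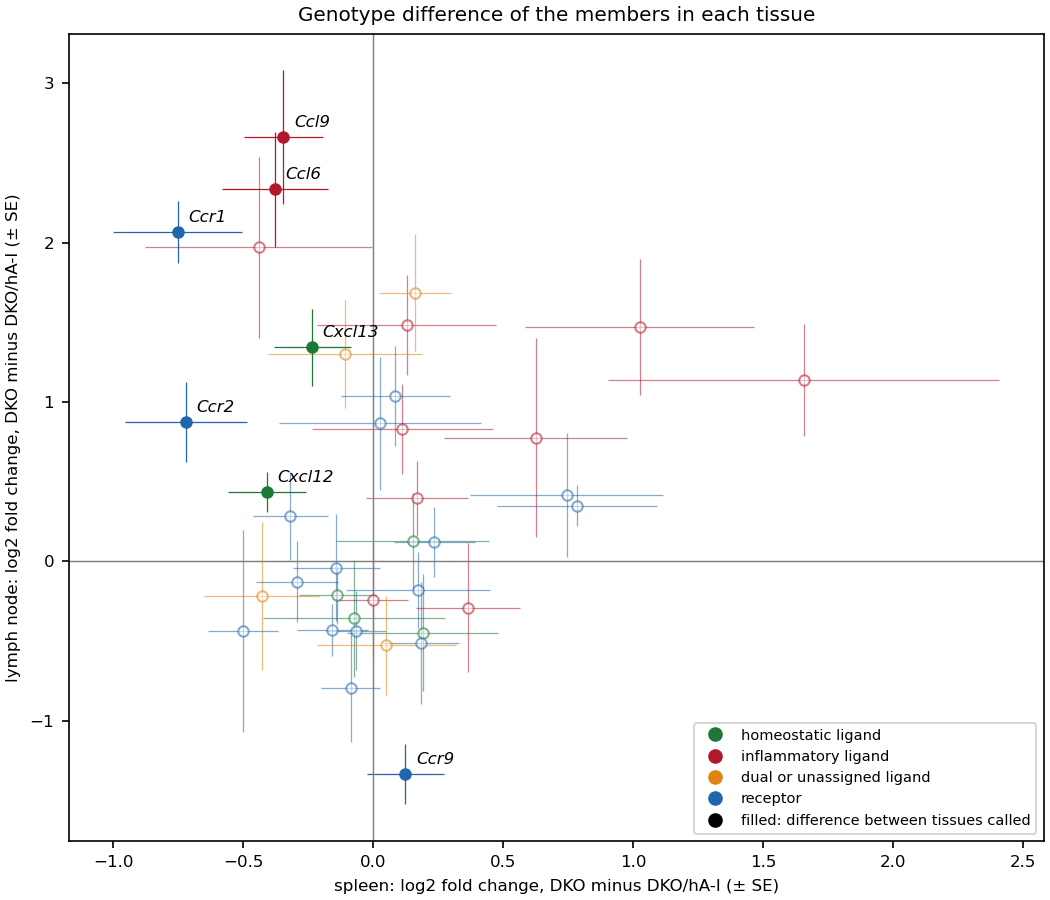
Log2 fold change between genotypes (± standard error) of members tested in both tissues, spleen on the horizontal and lymph node on the vertical axis, coloured by role and filled where the difference between tissues was called. Ccl9, Ccl6 and Ccr1 lie at 2.66, 2.33 and 2.06 in node with spleen values from -0.75 to -0.35, and Ccr9 lies lowest at -1.33 in node.

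Between the tissues, 30 of 47 members differed, 25 higher in lymph node and 5 higher in spleen. That is 63.8% of the members, against 35.4% of all genes (17.5% higher in node and 17.9% higher in spleen). Calls fell on 3 of 7 homeostatic ligands, 10 of 15 inflammatory ligands, 5 of 5 dual or unassigned ligands and 12 of 20 receptors. With a difference of at least 4-fold and at least 1 CPM in the higher tissue, 10 members were higher in node and 5 in spleen, against 2.54% and 3.46% of all genes (6% in all). All nodes lay above all spleens for 13 members and below them for 5, against 6.44% and 9.1% of all genes (15.5% in all). Because the animals differ between the tissues, tissue and cohort cannot be told apart. In the same contrast 7 of 7 adipocyte, 7 of 7 T cell and 6 of 6 blood vessel markers were called higher in node. So were 5 of 7 lipid-laden macrophage, 4 of 6 reticular stroma and 3 of 5 monocyte markers. Of 5 mast cell markers 4 were higher, as were 4 of 6 lymphatic vessel markers. Called lower were 4 of 5 neutrophil, 4 of 6 macrophage, 4 of 6 conventional dendritic cell and 6 of 6 erythroid markers. In the macrophage, conventional dendritic cell, stroma, monocyte and mast cell lists 1 marker each was called the other way. Their part in the chemokine differences was not tested. The 12 members that were not tested had counts too low for the filter.

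Among the members at least 4-fold higher in node were 5 monocyte and eosinophil attractants of a chromosome 11 cluster. Ccl12 stood at 17.7 to 34.4 CPM in the 6 nodes (median 24.0) and 0.576 to 1.27 CPM in the 6 spleens (median 0.836), a log2 difference of 4.84 ± 0.16 (edgeR adjusted p = 6.36e-10). Ccl11, the eotaxin that acts on CCR3, stood at 16.3 to 46.1 CPM (median 20.4) against 0.900 to 1.77 CPM (median 1.26; 4.17 ± 0.23). Ccl8 stood at 42.2 to 225 CPM (median 61.3) against 1.85 to 11.3 CPM (median 6.12; 3.88 ± 0.35), and Ccl2 at 6.96 to 27.8 CPM (median 14.0) against 0.618 to 5.63 CPM (median 0.901; 3.25 ± 0.41). In all of these the lowest node lay above the highest spleen. Ccl7 had 480 counts in the nodes and 12 in the spleens, a ratio of 42.1 after scaling with a 95% counting interval of 23.9 to 82.0.

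Cxcl14 had the largest difference over all libraries and was close to absent from spleen, with 4 counts against 655 in the nodes, a ratio of 172 (95% counting interval 67.0 to 634). In DKO/hA-I libraries it had 66 node and 4 spleen counts, a ratio of 17.7 (6.58 to 66.8). In DKO libraries it had 0 spleen and 589 node counts, so it was at least 203-fold higher in node with the floor of 3 counts set for the spleens together. Ccl17 and Ccl22, which dendritic cells make to attract CCR4-bearing T cells, were also higher in node. Ccl22 stood at 24.8 to 85.1 CPM (median 72.4) against 7.23 to 14.2 CPM (median 9.26; 2.64 ± 0.30), and Ccl17 had 106 counts against 8, a ratio of 13.9 (95% interval 6.83 to 33.1). Ccl9 (2.55 ± 0.24) and the neutrophil receptor Cxcr1 (2.43 ± 0.48) completed the node side, Ccl9 past 4-fold in the DKO but not in the DKO/hA-I libraries. Cxcr1 had a mean of 2.52 CPM in DKO nodes and 0.144 CPM in DKO spleens. In DKO/hA-I nodes and spleens its means were 0.768 and 0.456 CPM, too low to be tested. Over all libraries its nodes and spleens overlapped. The other neutrophil receptor, Cxcr2, was not called between tissues (0.36 ± 0.16). All 6 markers of migratory dendritic cells, of which Ccl22 is itself 1, were called higher in node.

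On the spleen side, Ccr3 stood at 69.5 to 124 CPM (median 84.4) in spleens and 2.47 to 16.8 CPM (median 6.14) in nodes (-3.51 ± 0.34, edgeR adjusted p = 4.21e-06). Its ligands split: Ccl24 was higher in spleen (2.10 to 4.00 CPM against 0.360 to 1.23 CPM, -2.06 ± 0.29) and Ccl11 higher in node. Ccr1l1, a receptor-like neighbour of Ccr1, stood at 1.40 to 4.23 CPM in spleens and 0.0899 to 0.529 CPM in nodes (-2.96 ± 0.41). Cxcr7, the scavenging receptor of CXCL12 that GENCODE lists as Ackr3, stood at 53.8 to 65.3 CPM (median 57.0) against 8.72 to 26.6 CPM (median 10.5; -2.20 ± 0.19). The neutrophil attractant Cxcl5 differed by -2.16 ± 0.36.

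Homeostatic pairs were split between tissues when all libraries were fitted. Ccl19 stood at 92.5 to 149 CPM in nodes and 97.9 to 138 CPM in spleens (-0.03 ± 0.12, edgeR adjusted p = 0.872), while its receptor Ccr7 (0.90 ± 0.22, adjusted p = 0.00642) and the second ligand Ccl21a (0.99 ± 0.25, adjusted p = 0.00765) were higher in node. Cxcl13 was higher in node (1.33 ± 0.15), and its receptor Cxcr5 was not called (-0.29 ± 0.14, adjusted p = 0.140). For CXCR4 the receptor was higher in node (0.62 ± 0.17) and Cxcl12 was not called (0.19 ± 0.10, adjusted p = 0.158). Receptors of effector T cells differed as well: Cxcr6 was higher in node (1.51 ± 0.17), as were Ccr4 (0.99 ± 0.19) and Ccr8 (1.18 ± 0.30), while Cxcr3 was not called (-0.10 ± 0.14) beside 7 of 7 T cell markers higher in node. The CXCR3 ligand Cxcl10 was higher in node (0.96 ± 0.25, edgeR adjusted p = 0.00905) but was called in neither genotype alone. Cxcl9 was not called (0.36 ± 0.17). Ccr6 was higher in node by 0.51 ± 0.11. Its ligand Ccl20 had 93 counts in the nodes and 0 in the spleens, but stood at 10.6 CPM in node DKO replicate 2 and at 0.107 to 1.30 CPM in the other nodes.

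For several members of the preceding contrast the tissue difference was also read within each labelled genotype, a pairing of groups that rests on the same labels. In DKO libraries alone 26 of 46 members were called between tissues (15.6% of all genes), and in DKO/hA-I libraries alone 23 of 43 (31.8%). Ccr1 was not called over all libraries (-0.13 ± 0.17). In the DKO libraries alone it was higher in node (1.25 ± 0.21, edgeR adjusted p = 0.00534), and in the DKO/hA-I libraries alone lower (-1.52 ± 0.24, adjusted p = 0.000808). Ccr9 went the opposite way, at -0.95 ± 0.19 among DKO (adjusted p = 0.0122) and 0.55 ± 0.15 among DKO/hA-I libraries (adjusted p = 0.0163). Ccl6 was called higher in node over all libraries (0.98 ± 0.22), with values of 2.29 ± 0.38 for DKO and -0.36 ± 0.17 for DKO/hA-I, the latter not called (adjusted p = 0.140). Ccl9 was called higher in node within both, at 4.01 ± 0.42 for DKO and 1.05 ± 0.18 for DKO/hA-I. Ccl21a was called in neither genotype alone (edgeR adjusted p = 0.188 for DKO and 0.0755 for DKO/hA-I). Ccr7, Cxcr4, Ccr6 and Ccr4 were called for DKO/hA-I but not for DKO (adjusted p = 0.429, 0.430, 0.190 and 0.103). Ccr8 was called for DKO but not for DKO/hA-I (adjusted p = 0.144).

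**Figure D4:**
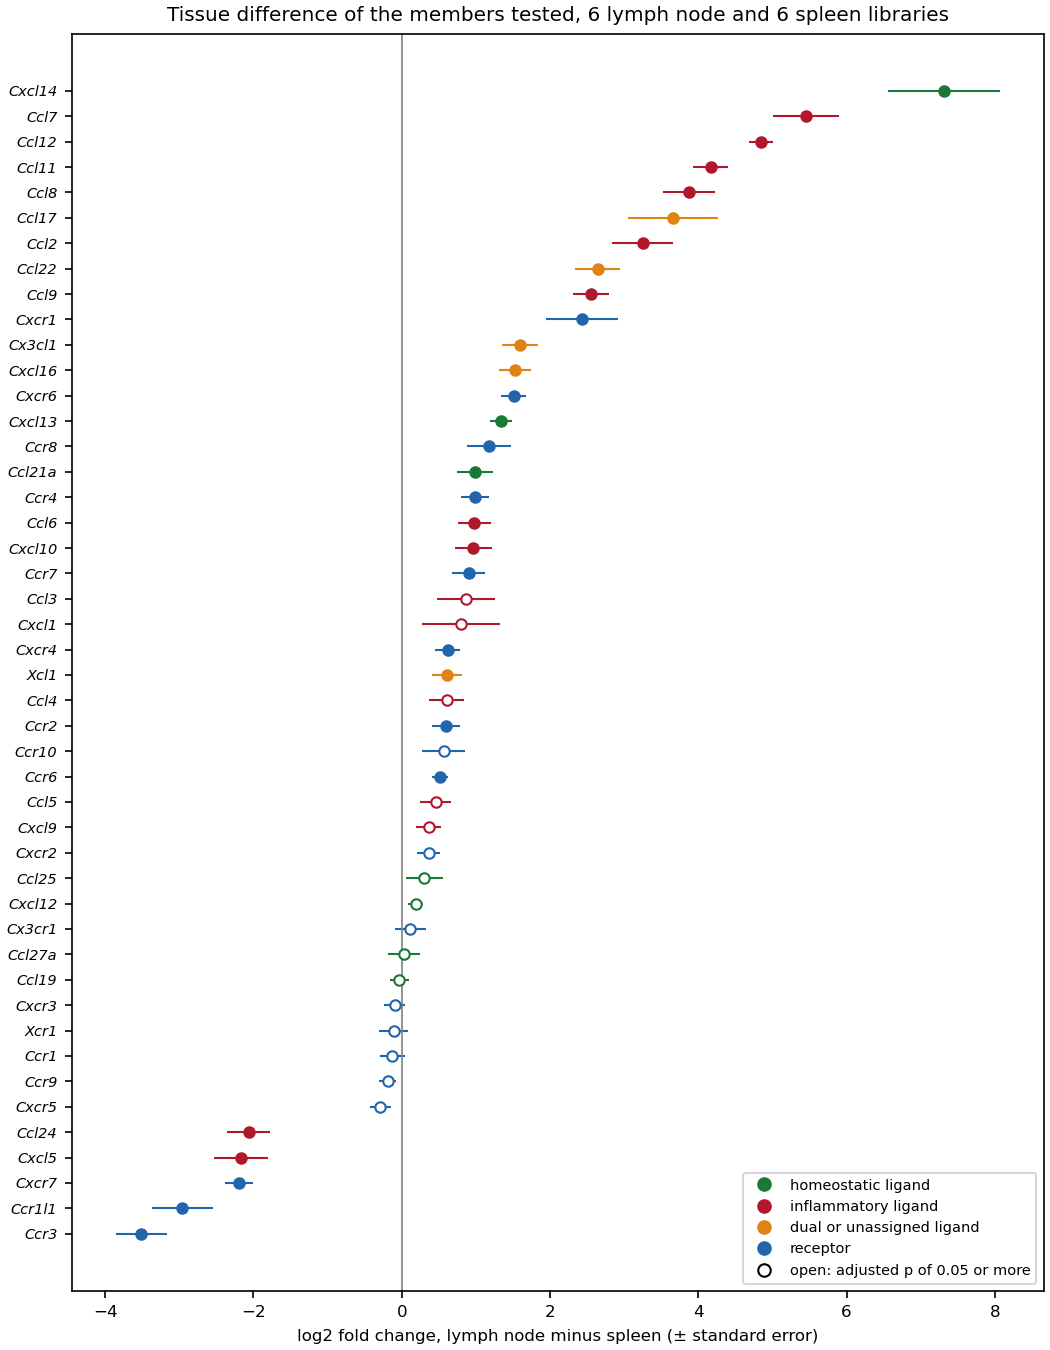
Log2 difference between lymph node and spleen (± standard error) of 46 of the 47 members tested over 6 node and 6 spleen libraries, coloured by role, with open circles where edgeR adjusted p was 0.05 or more. Cxcl14, Ccl7, Ccl12, Ccl11 and Ccl8 lie at 3.88 or above on the node side, and Ccr3, Ccr1l1, Cxcr7, Cxcl5 and Ccl24 at -2.06 or below on the spleen side.

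Gene order on the chromosomes set these groups side by side (GENCODE vM21, GRCm38). On chromosome 11, Ccl2 (82035571 to 82037453), Ccl7, Ccl11, Ccl12 and Ccl8 (82115185 to 82116799) follow each other, and all 5 were at least 4-fold higher in node than in spleen. Within node they differed between genotypes by -0.42 to 1.47, with Ccl12 the only 1 called. Further along, Ccl5 (83525778 to 83530518), Ccl9, Ccl6, Ccl3 and Ccl4 (83662584 to 83664683) include 3 of the ligands called between genotypes in node. Ccl5, at the edge of that cluster, lay at -0.24 there. On chromosome 9 a run of 7 receptors from Ccr9 (123678439 to 123784330) to Ccr2 (124101950 to 124113557) holds the receptors that rose, fell and were not called: Ccr1 was called higher in DKO nodes, Ccr9 lower, and Cxcr6, Xcr1, Ccr3 and Ccr2 were not called. Ccr1l1 was too low in the nodes to be tested.

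**Figure D5:**
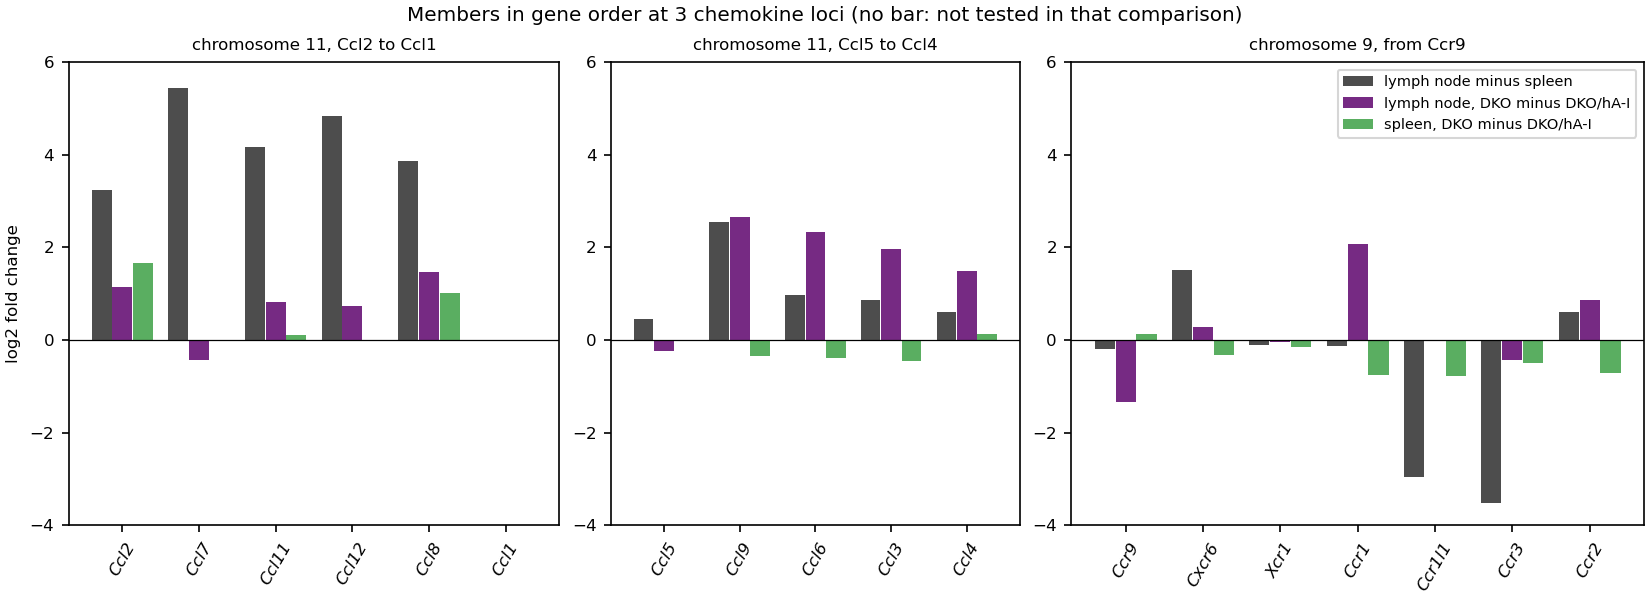
Log2 fold changes of members drawn in gene order at 3 loci, with grey bars for lymph node minus spleen and purple and green bars for DKO minus DKO/hA-I in lymph node and in spleen. The Ccl2 to Ccl8 run has grey bars from 3.25 to 5.45, and in the run that starts at Ccr9 the purple bars range from -1.33 for Ccr9 to 2.06 for Ccr1.

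Genes that act around chemokines were read from lists chosen with earlier results known. Of 8 atypical receptors and chemokine-like partners tested in node, 4 were called higher in DKO and 1 lower (median 0.73), against 3.95% and 2.92% of all genes. Ccrl2, which presents chemerin to cells, stood at 30.8, 19.2 and 39.0 CPM against 12.9, 7.77 and 10.1 CPM (1.55 ± 0.29, edgeR adjusted p = 0.0273). Chemerin itself, Rarres2, stood at 54.4, 56.3 and 66.7 CPM against 32.3, 35.0 and 33.3 CPM (0.83 ± 0.13, adjusted p = 0.0163) and its signalling receptor Cmklr1 at 0.98 ± 0.21 (adjusted p = 0.0388). Platelet factor 4, Pf4, differed by 2.38 ± 0.54 (adjusted p = 0.0424). The scavenger of CCR7 ligands, listed as Ccrl1, was the lower gene, at 5.58, 6.24 and 5.12 CPM against 9.47, 21.5 and 12.5 CPM (-1.36 ± 0.32, adjusted p = 0.0480). Of 17 genes of receptor signalling and desensitisation, Rgs1, which ends G protein signals, was called (1.28 ± 0.27, adjusted p = 0.0350). None of the 10 lymphotoxin and TNF pathway genes that act upstream of homeostatic ligands was called. In spleen 0 of the 36 genes tested in these 3 lists were called, where only 0.00714% of 14009 genes were.

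Some members share sequence or position with other genes, which limits their values. Ccl21a is 99.4% identical over 837 bases to Gm13304, which held 4676 counts over the 12 libraries beside 19939 for Ccl21a, and Ccl21b and Ccl21c are further copies at 0. Ccl27a and Ccl27b are 99.3% identical over 425 bases, and 338 bases of Ccl19 are 99.1% identical to Gm2564. No source used here says how reads were divided among such copies. Exons of genes on the opposite strand cover 18.3% of the exon length of Cxcl16 (Zmynd15) and 18.8% of that of Ccr9 (AC165425.1), so without the strand setting of the counting their reads cannot be told apart.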

How the data were processed

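Poly(A) RNA of spleen and axillary lymph node was sequenced on a Genome Analyzer IIx, per the labels and the series design. The submitters' processing notes name Trimmomatic, Bowtie, TopHat, Cuffdiff and GRCm38 (mm10). No source used here gives versions, gene annotation, counting program or strand setting. The deposited tables, 1 per tissue, hold raw read counts per gene and library, per the file headers, and the authors' q-value for the genotype comparison.

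Members, roles, pairs and lists were chosen with earlier results of these data known. Counts were fitted with edgeR 4.0.16 in R 4.3.3 (filterByExpr with a minimum count of 10 and total of 15, TMM, robust quasi-likelihood test) and p-values were Benjamini-Hochberg adjusted over all genes that passed. 1 member enters the fits and counts but is not reported here by name or value. Calls have an adjusted p under 0.05. CPM values share a TMM scale over the 12 libraries, with SDs over n = 3 unless stated. Text names members called between genotypes or in the tissue contrast, and members called between tissues at 4-fold and 1 CPM. It also names many, but not all, members of ligand and receptor pairs reaching 10 CPM. A few low members are named for their position or copies. Alternatives were DESeq2 1.42.0, limma 3.58.1 voom, other scalings, no filter, blocks and left-out libraries. The fits were tested on simulated data. Near-identical transcripts were found with blastn 2.17.0. Intervals and floors cover counting error alone, and reads that carry no molecular identifiers may repeat a molecule. Within groups, library pairs differed by 9.52 to 56.5 times the Poisson expectation, so none was counted as a copy.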

Additional observations from a re-analysis of the deposited data

Results flagged for a closer look

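For 8 members the genotype difference itself differed between lymph node and spleen by the edgeR quasi-likelihood test of that difference over all 12 libraries. The difference, node minus spleen on the log2 scale, was 2.99 for Ccl9, 2.80 for Ccr1, 2.69 for Ccl6, 1.57 for Ccr2, 1.56 for Cxcl13, 0.82 for Cxcl12 and -1.47 for Ccr9, the 7 reported here. Ccr2 and Cxcl12 had no call within either tissue, and lost the call of this difference in 10 and 11 of 18 alternatives. The genotype labels of 1 tissue may be exchanged, as Rpl31-ps12 held 2094 counts over the DKO nodes and 3 over the DKO/hA-I nodes, but 5 and 2162 over the corresponding spleens. That was not tested, and it would turn the difference between the tissues into a sum. The animals differ between the tissues, and the DKO nodes share an animal code number that the DKO/hA-I nodes lack, so these cannot be told apart from tissue and genotype. Groups of 3 libraries were not tested for outlying samples.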

How the results depend on the processing

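Between tissues 30 members were called. The alternatives that kept all 12 libraries gave 30 to 32 calls, single genotypes gave 23 and 26, and leaving out each library gave 28 to 33. Signs turned for 4 members that were called with all libraries or under the alternative: Ccr1 was 1.25 in DKO libraries only, and Ccr2, Ccr9 and Ccl6 were -0.18, 0.55 and -0.36 in DKO/hA-I libraries only. Members called in neither, such as Ccl19 and Cxcl12, also changed sign in some alternatives. In lymph node 10 members were called, and DESeq2 called 19, including all 10 (1977 genes in all against 962). Left-out libraries gave 1 to 16 there (115 to 2245 genes in all). In spleen 0 were called, 3 with the animal code as a block (515 genes in all), and 0 to 1 with a library left out (1 to 167 genes). For the tissue contrast of genotypes 8 were called (487 genes in all, 962 by DESeq2). With a library left out, 4 to 12 were called (179 to 1160 genes in all). Where an arm kept 2 libraries, fewer samples entered the fit.

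With the replicate number as a block (replicate block), 6 members were called in lymph node (438 genes in all), 3 in the tissue contrast of genotypes (152 genes against 487), 0 in spleen and 31 between tissues. Libraries with the same number correlated at -0.001, 0.108 and -0.100 in spleen and -0.141, 0.026 and -0.034 in lymph node after removal of group means. These values gave no sign that the numbers pair the samples. They cannot exclude it, as they also carry differences in depth and tissue make-up between libraries. Not every library correlated best with its own number. Over the named members, 43 of 120 values called in lymph node lost the call, 34 of 144 in the tissue contrast of genotypes and 24 of 596 between tissues, while 16, 8 and 17 uncalled values gained it there and 4 in spleen. Other causes of these changes were not tested. Depth limits Cxcr1, Ccl7, Ccl17 and Ccr1l1, which had libraries under or near the floor of 3 counts.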

Other observations

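Low members that entered no test showed a few single-library values. Ccl20, the CCR6 ligand of epithelium, stood at 10.6 CPM in lymph node DKO replicate 2 and at 0.107 to 1.30 CPM in the other nodes, and the 6 skin and mammary epithelial markers summed to 72.8 CPM in that library, with Krt5 and Krt14 at 0 in the DKO nodes. Cxcl2, a neutrophil attractant, stood at 5.03 CPM in lymph node DKO replicate 3 and at 0.186 to 0.843 CPM in the other nodes.

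The authors' deposited table called 784 of its 23284 genes in lymph node, 10 of them members, including Ccl3, Ccl6, Ccl8, Ccl9, Ccr1, Cx3cr1, Cxcl13, Cxcl14 and Cxcl16. Its lowest q-value for a member was 2.53e-12 for Ccl9. It called 0 members in spleen, among 8 genes.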
